A study of Drosophila melanogaster with 2 samples.

Results

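The neuronal and glial differentiation genes described here are 34 of the 13945 protein-coding genes annotated on chromosome arms 2L, 2R, 3L and 3R and chromosomes 4 and X of Drosophila melanogaster. They were a named list of neural genes, drawn up with earlier results of these data known, and each symbol matched 1 gene of the dm6 annotation. A peak was assigned to a gene when its summit, the position of highest enrichment, lay in the gene or within 5 kb of it. Of the 34 genes, 12 encode neural RNA-binding proteins and factors of neural and glial fate: elav, fne, Rbp9, brat, pros, nerfin-1, scrt, repo, gcm, gcm2, mira and insc. The other 22 encode synaptic, channel, transmitter and axonal proteins: Syt1, nSyb, Syx1A, Snap25, brp, Rim, unc-13, Rdl, para, cac, Sh, Shab, Shal, Shaw, eag, slo, VGlut, VAChT, ChAT, Gad1, Appl and futsch.

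Chromatin immunoprecipitation and sequencing (ChIP-seq) was done with an anti-GFP antibody on whole embryos aged 0 to 24 h of a transgenic line. Its strain label is emc-GFP, and it expresses emc fused at its C-terminus to GFP, described in the labels as an emc-eGFP fusion. There was 1 group of 2 samples, biological replicates 1 and 3, with males and females pooled. No second genotype, treatment or stage was analysed here, so the data give where peaks lay and how strong they were, and no difference between conditions. In whole embryos most cells are not neurons or glia, and strong binding in few cells and weak binding in many cannot be told apart.

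The emc gene encodes a helix-loop-helix protein without a basic DNA-binding region, the fly relative of the vertebrate Id proteins. It is known to pair with basic helix-loop-helix proteins such as Daughterless and the proneural factors, which bind the E-box sequence CANNTG, and to keep them from DNA. Proneural factors select neural precursors, whose daughters become neurons or glia and later switch on genes such as elav in neurons and repo in glia. Genes of synapses and ion channels are used later still, in differentiated neurons.

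The authors deposited a peak list for each replicate and a relaxed list of 29399 pooled peaks on the 6 chromosomes. A further list held 1865 peaks that passed the irreproducible discovery rate (IDR) procedure, which favours peaks ranked alike in both replicates. Each peak carries the authors' signal, a value of enrichment on their caller's own scale, used here only to rank and describe peaks within a list. In the IDR list the signal ran between 62.7 and 1207, with a median of 94.2. Pooled peaks that overlapped no IDR peak, called weaker peaks here, numbered 27229 and had a median signal of 24.6. The pooled and replicate lists are labelled as peaks and background. On the −log10 scale the q-value of weaker peaks went down to 0.0178, against a lowest value of 2.79 in the IDR list. A low value is weak evidence for a peak, so many weaker peaks may be background and not binding. Read depth is not in these files, so no floor for an undetected peak can be given.

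The sequence at the summit is shown for 8 IDR peaks at 6 of the genes, because they include the 5 strongest of the 14, at brat, Rim, elav, Gad1 and Syx1A, and the weakest, at brat. The other elav peak and the nSyb peak are added to show a second peak at elav and a peak at a neighbouring start. Each is the plus strand of the Release 6 assembly, 5′ to 3′, 100 bases to either side of the summit, with every E-box CANNTG in capitals. The first pair lies at elav, just upstream of its start and in its first intron, the second pair in introns of brat, and the rest beside Rim, Gad1, Syx1A and nSyb.
elav upstream, chrX:523361-523561: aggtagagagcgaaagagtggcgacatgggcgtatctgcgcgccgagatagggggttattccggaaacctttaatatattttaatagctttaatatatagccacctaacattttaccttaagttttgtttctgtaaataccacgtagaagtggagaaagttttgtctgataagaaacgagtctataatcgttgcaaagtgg
elav intron, chrX:522520-522720: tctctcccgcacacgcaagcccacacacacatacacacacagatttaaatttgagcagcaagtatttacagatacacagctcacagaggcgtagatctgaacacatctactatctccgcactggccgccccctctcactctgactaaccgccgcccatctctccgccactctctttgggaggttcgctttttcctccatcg
brat strongest, chr2L:19165103-19165303: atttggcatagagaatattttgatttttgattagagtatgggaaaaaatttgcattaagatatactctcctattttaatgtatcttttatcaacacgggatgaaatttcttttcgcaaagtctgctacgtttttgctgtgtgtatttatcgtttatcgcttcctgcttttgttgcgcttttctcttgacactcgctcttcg
brat weakest, chr2L:19155072-19155272: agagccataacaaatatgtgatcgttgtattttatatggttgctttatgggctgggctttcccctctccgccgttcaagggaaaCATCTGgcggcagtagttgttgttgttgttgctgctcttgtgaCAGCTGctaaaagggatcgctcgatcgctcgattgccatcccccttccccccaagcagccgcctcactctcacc
Rim upstream, chr3R:17919132-17919332: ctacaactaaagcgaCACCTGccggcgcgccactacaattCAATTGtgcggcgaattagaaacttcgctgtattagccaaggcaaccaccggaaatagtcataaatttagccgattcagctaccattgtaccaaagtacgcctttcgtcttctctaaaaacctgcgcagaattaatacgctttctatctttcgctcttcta
Gad1 downstream, chr3L:4070518-4070718: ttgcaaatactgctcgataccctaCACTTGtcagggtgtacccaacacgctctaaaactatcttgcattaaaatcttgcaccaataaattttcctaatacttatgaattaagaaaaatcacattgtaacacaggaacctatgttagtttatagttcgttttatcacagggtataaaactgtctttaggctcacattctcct
Syx1A upstream, chr3R:24108978-24109178: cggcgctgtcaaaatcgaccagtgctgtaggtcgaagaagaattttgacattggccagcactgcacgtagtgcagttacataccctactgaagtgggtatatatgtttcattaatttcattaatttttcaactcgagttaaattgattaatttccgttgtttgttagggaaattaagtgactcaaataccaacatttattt
nSyb upstream, chr3L:1639404-1639604: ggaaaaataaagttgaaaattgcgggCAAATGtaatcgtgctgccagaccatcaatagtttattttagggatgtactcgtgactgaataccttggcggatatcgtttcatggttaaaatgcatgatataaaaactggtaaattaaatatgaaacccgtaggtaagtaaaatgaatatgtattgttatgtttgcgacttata

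Both elav windows, the strongest brat window and the Syx1A window hold no E-box. The weakest brat peak holds CATCTG and CAGCTG, at 16 bp left and 27 bp right of the summit. Rim holds CACCTG and CAATTG, Gad1 holds CACTTG and nSyb holds CAAATG. The elav intron window has a GC content of 52.2%, against 39.3% in the window upstream of elav, and holds GAGAG, the GAGA motif, 4 times on either strand. Over all 14 IDR peaks at the genes, 9 (64.3%) had an E-box within 100 bp of the summit, against 63.4% of all IDR peaks and 65.1% of weaker peaks at the genes. GAGAG was found in 7 of the 14 (50%), against 23.9% of all IDR peaks, and all 7 lay at elav, brat and insc. The TATA sequence TATAAA was in 8 (57.1%), against 29.5%. The DNA replication-related element TATCGATA was in none of the 14, and in 5.31% of all IDR peaks. The 14 peaks are few and not independent, with 4 at brat and an overlapping pair at Syx1A. All motifs were searched on both strands. E-box, GAGAG and TATAAA letters can fall in a window by chance, and a match describes the sequence only.

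Strong emc-eGFP peaks lay at 8 of the 34 genes: elav, Rbp9, brat, insc, nSyb, Syx1A, Rim and Gad1. This is 23.5% of the genes (95% Clopper-Pearson interval 10.7 to 41.2%). Of all protein-coding genes, which are mostly shorter, 28.6% had an IDR summit in the gene or within 5 kb. By length that share was 26.6% under 10 kb, 39% from 10 to 40 kb and 45.8% at 40 kb or longer. Among the RNA-binding and fate genes 4 of 12 (33.3%, interval 9.92 to 65.1%) had one, against 4 of 22 synaptic, channel, transmitter and axonal genes (18.2%, interval 5.19 to 40.3%). The intervals overlap widely. They cover counting error only, and neighbouring genes share peaks.

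Inside the gene itself an IDR summit lay at 3 of the 34 genes, elav, brat and insc (8.82%, interval 1.86 to 23.7%), against 6.03% of all protein-coding genes, which are mostly shorter. These are 3 of 12 RNA-binding and fate genes (25%, interval 5.49 to 57.2%), against 0 of the other 22 (up to 15.4%), and the intervals overlap. Within 1 kb of one of the gene's own starts there was an IDR summit at 2 genes, elav and brat (5.88%, interval 0.72 to 19.7%), against 12.4% of all protein-coding genes. Of the 22 synaptic, channel, transmitter and axonal genes 0 had one, which allows a share of up to 15.4%, above that 12.4%. At nSyb, Syx1A, Rim and Gad1 each IDR summit lay outside the gene, between 1752 bp and 3514 bp away.

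**Figure D1:**
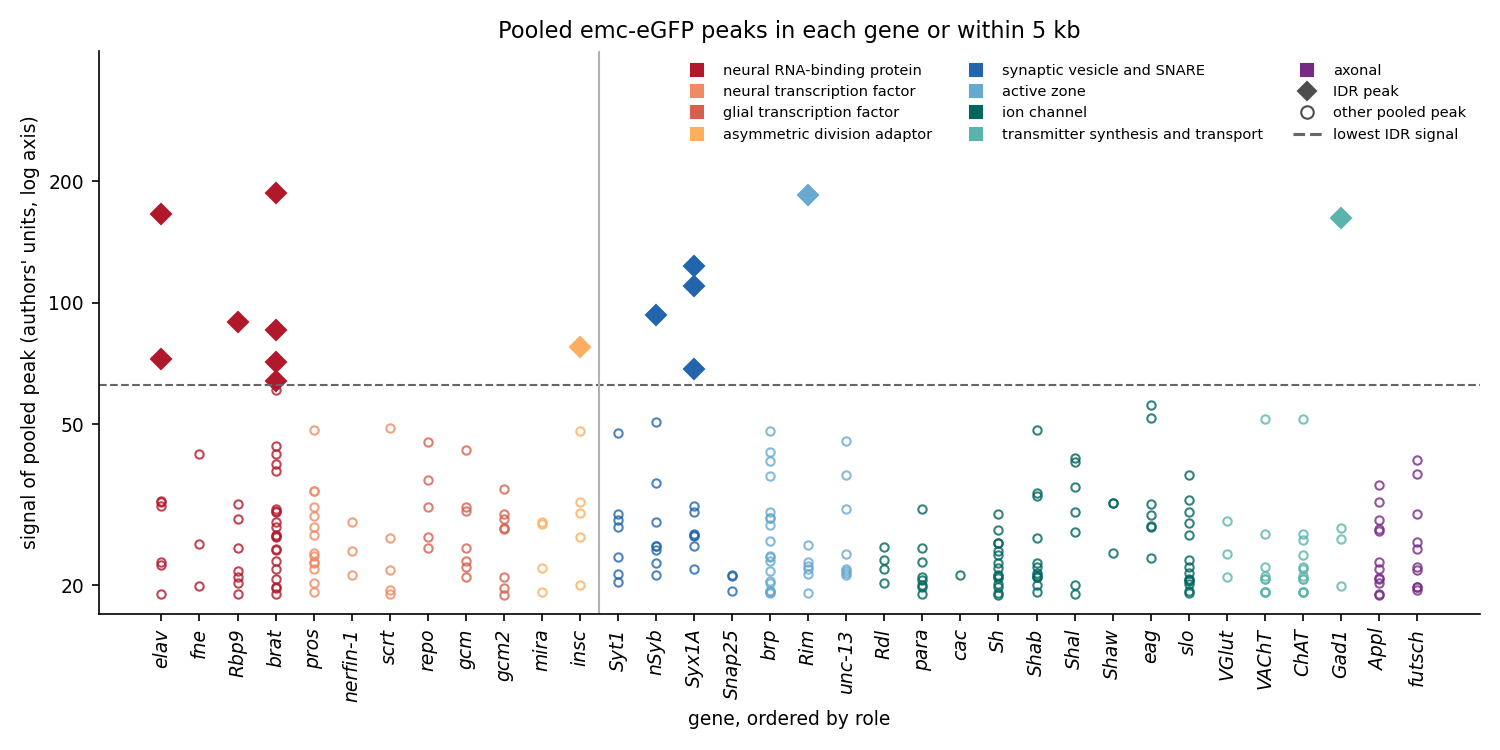
Signal of each pooled peak (authors' units, log axis) with its summit in the gene or within 5 kb, for the 34 genes ordered by role, RNA-binding and fate genes to the left of the grey line and the other 22 to its right. Diamonds are IDR peaks, open circles are other pooled peaks, and the dashed line is the lowest IDR signal, 62.7; diamonds stand at 8 genes and at no ion channel gene.

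A longer gene offers more room for a summit, and the 34 genes had a median length of 27.2 kb, against 2.17 kb for all protein-coding genes. Among genes under 10 kb, 2 of 7 had an IDR summit (nSyb and Syx1A), and 26.6% of all protein-coding genes of that length did. Among genes of 10 to 40 kb, 4 of 14 did (elav, Rbp9, insc and Gad1), against 39% of all. Among genes of 40 kb or longer, 2 of 13 did (brat and Rim), 15.4% with an interval of 1.92 to 45.4%, against 45.8% of all. Per 100 kb of gene and flank there were 0.879 IDR summits at the 34 genes (exact Poisson interval 0.48 to 1.47), against 1.63 at all protein-coding genes (1.56 to 1.71). For genes of 40 kb or longer the values were 0.454 at the 13 listed genes (0.148 to 1.06) and 0.897 at all 461 such genes (0.807 to 0.994), and these intervals overlap.

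elav, chrX:509235-523226 on the minus strand, encodes the RNA-binding protein that marks nearly all fly neurons and directs their alternative splicing and polyadenylation. Its strongest peak had a pooled signal of 166, rank 276 in the pooled list, with its summit 235 bp upstream of the elav start. The signal was 57 in replicate 1 (rank 462) and 114 in replicate 3 (rank 188). A second IDR peak lay 606 bp downstream of the same start, in an intron, with a pooled signal of 72.6 and ranks of 3907 in replicate 1 and 914 in replicate 3. Both replicates thus put the upstream peak above the intronic one. The start of the non-coding RNA lncRNA:enrr lies at the same place as that of elav, and the gene arg spans both peaks, so the peaks cannot be given to elav alone. The other 6 pooled peaks at elav were weaker, with signals of 19 to 32.3.

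brat, chr2L:19133816-19179758 on the plus strand, had the most peaks of the 34 genes, 25 in the pooled list and 4 in the IDR list. It encodes an RNA-binding repressor of translation that keeps neuroblast daughters from growing back into stem cells. Its strongest peak, with a pooled signal of 187 (rank 213), lay in an intron 664 bp upstream of the most internal of its 3 annotated starts. The signal there was 80.2 in replicate 1 (rank 220) and 104 in replicate 3 (rank 234). The second, with a pooled signal of 85.5, lay in an intron 8169 bp from the nearest brat start, with signals of 29.7 and 57.6 in replicates 1 and 3. One more, at 64.2, also lay in an intron, 3368 bp upstream of an internal start, and had signals of 22.8 and 42.3. The last, at 71.3, stood 1808 bp upstream of brat but 54 bp from the start of AsnRS, an asparaginyl-tRNA synthetase gene. brat also held the weaker peak nearest to the IDR list, with a signal of 61 (rank 1964) in the same intron as the second peak, just below the 64.2 of its own lowest IDR peak. Of its 21 weaker peaks 11 overlapped a peak of both replicates, 9 one of replicate 3 only and 1 one of replicate 1 only.

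Rbp9 and fne encode the relatives of Elav in the same family of neuronal RNA-binding proteins, and neither had a strong peak at its own start. The 1 IDR peak assigned to Rbp9 (chr2L:2954762-2968434, plus strand) lay 4358 bp downstream of the gene and 99 bp from the start of gammaTub23C, a gamma-tubulin gene. Its signal was 89.4 in the pooled list, 30.8 in replicate 1 and 55.7 in replicate 3. The strongest peak within 1 kb of an Rbp9 start had a signal of 21 and was seen in replicate 3 only. At fne the strongest peak, with a pooled signal of 42.3, lay in the 3′ untranslated region, with signals of 17.9 and 23.6 in replicates 1 and 3. No pooled peak lay within 1 kb of an fne start.

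insc, chr2R:20821262-20836028 on the minus strand, encodes the adaptor that orients the dividing neuroblast's spindle. Its IDR peak had a pooled signal of 77.7, 34.8 in replicate 1 (rank 1198) and 37.9 in replicate 3 (rank 1890). The summit lay inside insc, 3498 bp from its start, and 112 bp from a start of sktl, a phosphatidylinositol phosphate kinase gene whose span lies within that of insc. The insc start is also a start of sktl. The strongest pooled peak within 1 kb of it, 318 bp downstream, had a signal of 26.4 and cannot be given to insc alone. mira, the adaptor that carries Prospero and Brat proteins into the smaller daughter, reached 28.6 at most, and none of its 4 pooled peaks overlapped a peak of both replicates.

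The transcription factors of neural and glial fate had weaker peaks only. scrt, a zinc finger repressor of non-neural fate, had a pooled signal of 49.1 at 304 bp upstream of its only start, with 21.5 in replicate 1 (rank 3598) and 30 in replicate 3 (rank 2956). pros, the homeodomain factor that ends neuroblast divisions, had its strongest peak (48.5) downstream of the gene and 77 bp from the start of mgr, and its strongest peak within 1 kb of a pros start had a signal of 26.7. nerfin-1, a zinc finger factor that keeps neurons differentiated, reached 28.6 at 421 bp upstream of its start, at ranks of 19093 and 22507 in replicates 1 and 3. Of the glial factors, repo had 45.3 in an intron of 14-3-3epsilon, gcm 43.2 at the start of Mtpalpha, and gcm2 34.7 at 675 bp from the start of Trx2. At their own starts gcm and gcm2 had signals of 23 and 18.9, both in replicate 1 only, and repo had no pooled peak within 1 kb of its start.

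The SNARE genes nSyb and Syx1A, which encode the vesicle and membrane proteins that drive transmitter release, carried IDR peaks at the starts of their neighbours. At nSyb (chr3L:1630348-1637752, minus strand) the peak had a signal of 93.5, 42.8 in replicate 1 (rank 829) and 50.5 in replicate 3 (rank 1101). It lay 1752 bp upstream of nSyb and 207 bp from the start of Bgb, which encodes a partner of Runx factors. The strongest peak within 1 kb of an nSyb start had a signal of 35.9. Syx1A (chr3R:24101600-24105763, minus strand) lies whole within the span of eIF4EHP, a gene for a cap-binding repressor of translation. Its strongest IDR peak, at 123, lay 3315 bp upstream of Syx1A and 118 bp from the eIF4EHP start, and an IDR peak of 68.7 overlapped it. Both of these overlapped the same replicate peaks, with signals of 40.3 in replicate 1 and 84.5 in replicate 3. Another, at 110, lay 2415 bp downstream of Syx1A in an intron of eIF4EHP, with 53.9 in replicate 1 and 52.6 in replicate 3. Within 1 kb of the Syx1A start the strongest pooled peak, 632 bp upstream, had a signal of 31.5. A peak 28 bp from that start had a signal of 30.3, and both were seen in replicate 3 only. Syt1, the calcium sensor of release, had its strongest peak (47.7) at 217 bp from the start of Taf10 and none within 1 kb of its own starts. Snap25, another SNARE gene and at 225026 bp the longest of the 34, had 3 pooled peaks, the strongest at 21.2.

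Among the active zone genes, which build the site of vesicle release, Rim (chr3R:17872748-17916578, minus strand) had 1 IDR peak. Its pooled signal was 185 (rank 218), the second highest at the 34 genes after brat, with 106 in replicate 1 (rank 118) and 79.6 in replicate 3 (rank 440). It lay between genes, 2654 bp upstream of Rim and 600 bp from the start of cpo, which encodes another neural RNA-binding protein. Rim had no pooled peak within 1 kb of its start, and none of its 6 weaker peaks was in both replicates. brp, the scaffold of the active zone, reached 48.2 at 3282 bp downstream of the gene, at rank 1449 in replicate 1 and rank 7850 in replicate 3. unc-13, which primes vesicles, reached 45.6 at 55 bp from the start of Gyf.

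**Figure D2:**
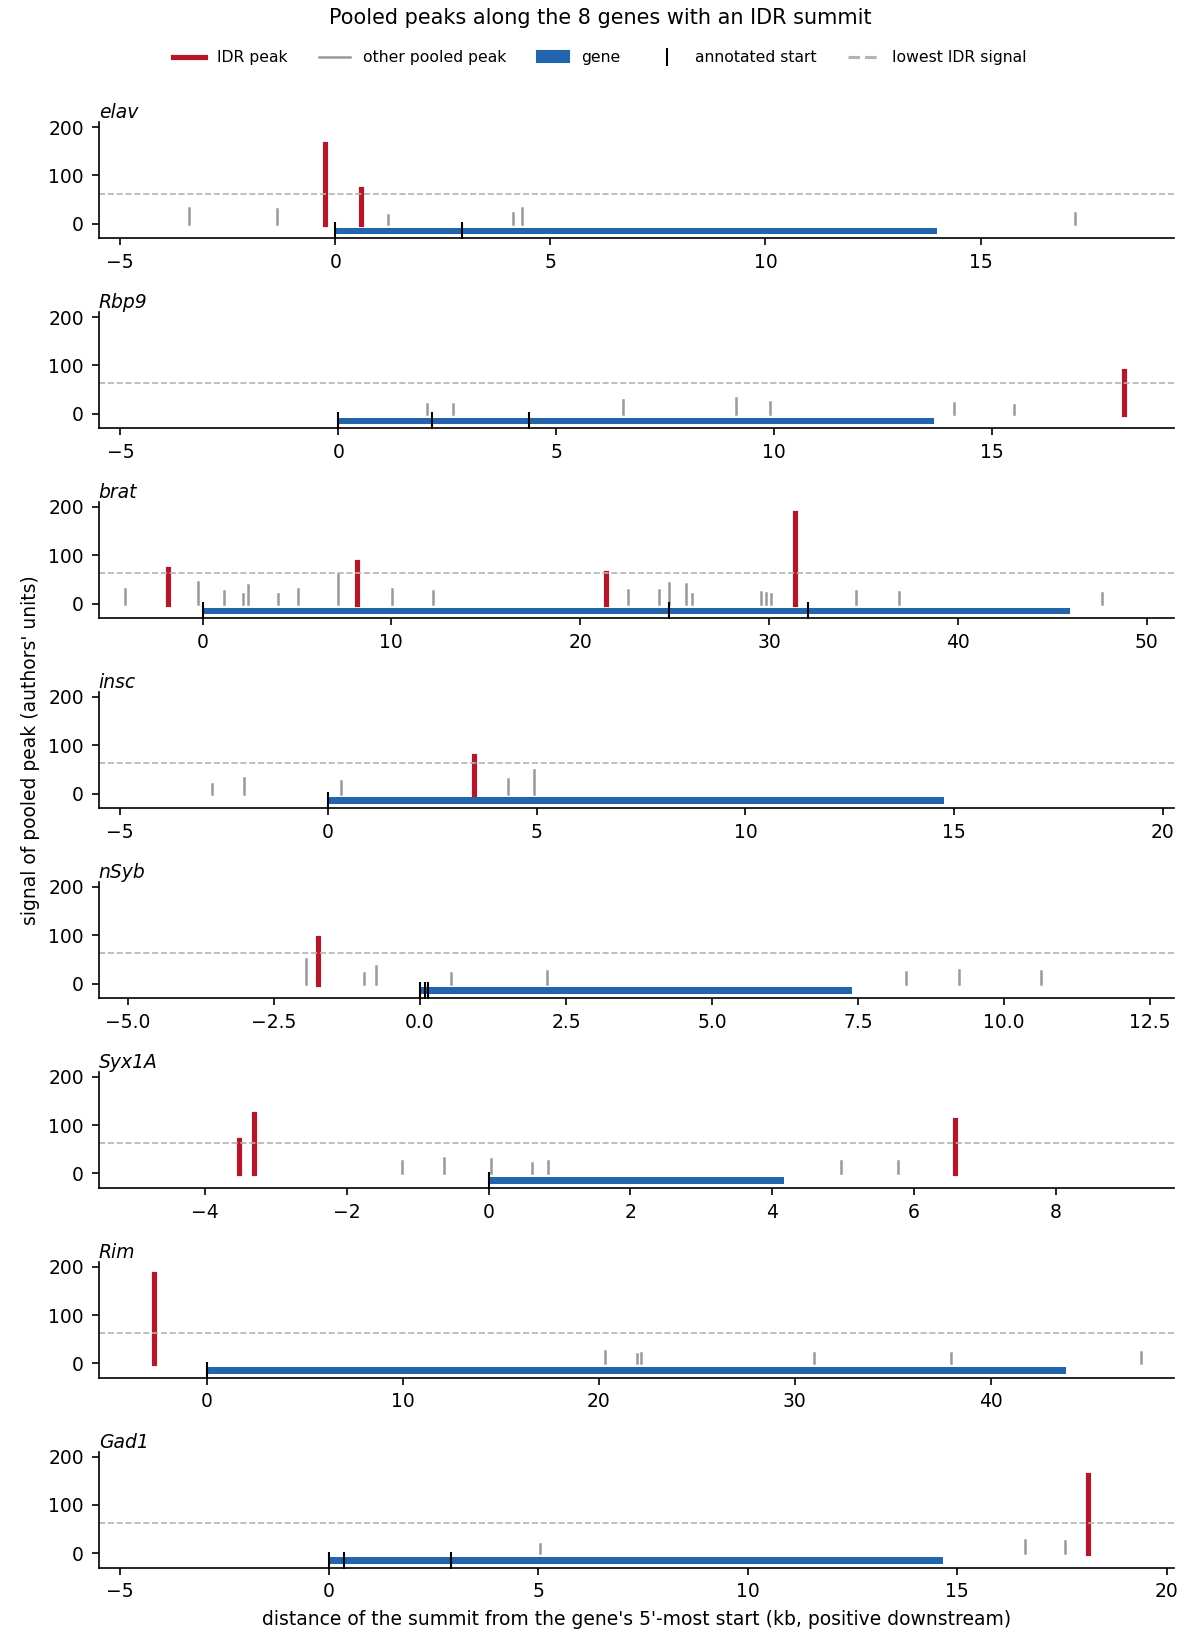
Pooled peaks along the 8 genes with an IDR summit, as distance of the summit from the 5′-most start (kb, positive downstream) against the signal (authors' units); red lines are IDR peaks, grey lines other pooled peaks, the blue bar the gene and black ticks its annotated starts. In elav and brat red lines stand within the blue bar and near a start, while in Rbp9, nSyb, Syx1A, Rim and Gad1 they stand outside it.

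None of the 9 ion channel genes had an IDR summit, which allows a share of up to 33.6%. That limit is above the 28.6% of all protein-coding genes. Of the 9, 6 are 40 kb or longer, and 45.8% of all genes of that length had an IDR summit. The 33.6% also covers shorter channel genes and cannot be set against that share, and no limit was worked out for the 6 alone. Along their 594 kb of gene and flank the 0 IDR summits allow up to 0.621 per 100 kb, against 1.63 at all protein-coding genes and 0.897 at those of 40 kb or longer, for counting error only. eag, a voltage-gated potassium channel gene, came nearest. It had a peak of 55.8 (rank 2273) at 189 bp from the start of the neighbouring pdgy, at rank 8435 in replicate 1 and 1765 in replicate 3. It also had a peak of 51.8 (rank 2600) at 166 bp upstream of its own start, with signals of 24.8 in replicate 1 (rank 2426) and 24.6 in replicate 3 (rank 4424). The potassium channel gene Shab reached 48.4 in an intron, with 11.8 and 35 in replicates 1 and 3. Shal, likewise a potassium channel gene, reached 41.3 upstream, with no overlapping peak in replicate 1 and a signal of 35.2 in replicate 3. At slo, the calcium-activated potassium channel gene, the strongest peak had 37.4 pooled and 21.5 in replicate 1, with none overlapping in replicate 3. Shaw and Sh, 2 further potassium channel genes, reached 32 and 30. para, the voltage-gated sodium channel gene, reached 30.9, the GABA receptor gene Rdl 24.9 and the calcium channel gene cac 21.2, its only pooled peak.

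Of the transmitter genes, Gad1, for the enzyme that makes GABA, had an IDR peak of 162 (rank 296), with 71.6 in replicate 1 (rank 287) and 95.5 in replicate 3 (rank 298). The summit lay 3459 bp downstream of Gad1 (chr3L:4074077-4088744, minus strand), in an intron of wit, a BMP receptor gene, 1099 bp from the wit start. Gad1 had no pooled peak within 1 kb of its own starts. ChAT, which makes acetylcholine, and VAChT, which loads it into vesicles, share a start and their strongest peak, at 51.7, with 25.4 in replicate 1 and 32.5 in replicate 3. At the shared start the strongest peak had a signal of 19.2 and was seen in replicate 3 only. VGlut, the glutamate transporter gene, reached 28.8, in its 5′ untranslated region. The axonal genes Appl, the fly amyloid precursor protein gene, and futsch, a microtubule-associated protein gene, reached 35.4 and 40.8, at 525 bp upstream and 78 bp downstream of a start of their own. The Appl peak lay nearer to the start of CG4293, at 127 bp.

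Every gene of the 34 had at least 1 pooled peak, between 1 at cac and 25 at brat, and so did 93.2% of all protein-coding genes. The pooled list includes background, so this does not show binding at every gene. The strongest pooled peak per gene had a median signal of 45.4 at the 34 genes, 46.9 at the RNA-binding and fate genes and 43.5 at the other 22. It was 41.9 over all protein-coding genes, and 58.5 over those of 40 kb or longer. By role it was 128 at the 4 RNA-binding protein genes, 48.5 at the neural transcription factors and 43.2 at the glial ones. At insc and mira it was 53.1, and at the synaptic vesicle and SNARE genes 70.6. The transmitter genes had 51.7, the active zone genes 48.2, the axonal genes 38.1 and the 9 channel genes 32. A pooled peak within 1 kb of an own start was present at 21 of the 34 genes (61.8%), against 62.6% of all protein-coding genes.

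Of the 14 IDR peaks 7 (50%) lay within 500 bp of a gene start, against 62.3% of IDR peaks at all protein-coding genes. Only the peak upstream of elav was at a start of the listed gene itself, and the other 6 were at starts of neighbours. All of these but the insc peak lay within 500 bp of starts of a pair of neighbouring genes. The pairs were gammaTub23C and Rrp1 at Rbp9, AsnRS and DCTN6-p27 at brat, Bgb and Mettl2 at nSyb, and eIF4EHP and CG18428 at Syx1A. The intron class held 6 of the 14 (42.9%), against 29% at all protein-coding genes, and these shares rest on few peaks. It held 4 of 8 at the RNA-binding and fate genes and 2 of 6 at the other genes. In those 4 the intron was that of elav or brat, and in the 2 it was that of a neighbour, eIF4EHP or wit. Per 100 kb of intron there were 3.05 IDR summits at the RNA-binding and fate genes (exact Poisson interval 0.831 to 7.81), against 0.25 at the other 22 genes (0.0303 to 0.903) and 1.01 at all protein-coding genes. Of the 4 intronic summits behind the first value 3 lay in brat, and without brat it was 0.987 (0.025 to 5.5), so the gap rests on that gene. Per 100 kb of promoter the densities were 7.49 (2.04 to 19.2), 2.74 (0.566 to 8.02) and 6.5. Coding exons held 0 IDR summits at the 34 genes.

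Weaker peaks, which are far more numerous, gave narrower intervals. They numbered 255 at the 34 genes, 16 per 100 kb (interval 14.1 to 18.1), against 22.6 at all protein-coding genes and 16.7 at those of 40 kb or longer. The RNA-binding and fate genes had 25.4 per 100 kb (20.3 to 31.3). The synaptic, channel, transmitter and axonal genes had 13.4 (11.5 to 15.6), and these intervals do not overlap. They treat each peak as independent, but some weaker peaks overlap one another, as at brat, elav and brp. The intervals given here for weaker peaks are therefore too narrow, by an amount that was not tested. The groups also differed in median gene length, at 11.9 kb and 40.8 kb, and the part of length in this gap was not tested. In introns there were 22.1 per 100 kb (14.8 to 31.7) at the RNA-binding and fate genes and 7.75 (5.94 to 9.93) at the other 22, against 17.2 at all protein-coding genes. In promoters the values were 41.2 (25.8 to 62.4) and 32.9 (23.1 to 45.6), against 39.4, and in coding exons 40.5 (24.7 to 62.5) and 23.9 (16.8 to 33), against 30.2, with overlapping intervals between the groups. In 5′ untranslated regions, from 1 and 10 peaks, they were 11.4 (0.289 to 63.7) and 54.7 (26.2 to 101), against 32.9, the other way round and with overlapping intervals. The channel genes had 9.06 per 100 kb of intron and 12.8 per 100 kb of coding exon. A single gene weighs on each group, brat with 21 weaker peaks and Snap25 with 1.28 per 100 kb over its long span. Without brat the RNA-binding and fate genes had 23 per 100 kb (17.8 to 29.2), and without Snap25 the other genes had 16.3 (13.9 to 18.9). In introns the same values were 17.8 (10.5 to 28.1) and 10.2 (7.76 to 13.1). With both genes left out the RNA-binding and fate genes still had the higher values, but the intervals of the groups overlap. With either gene alone left out the intervals stay apart, so their separation depends on brat and Snap25 together.

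**Figure D3:**
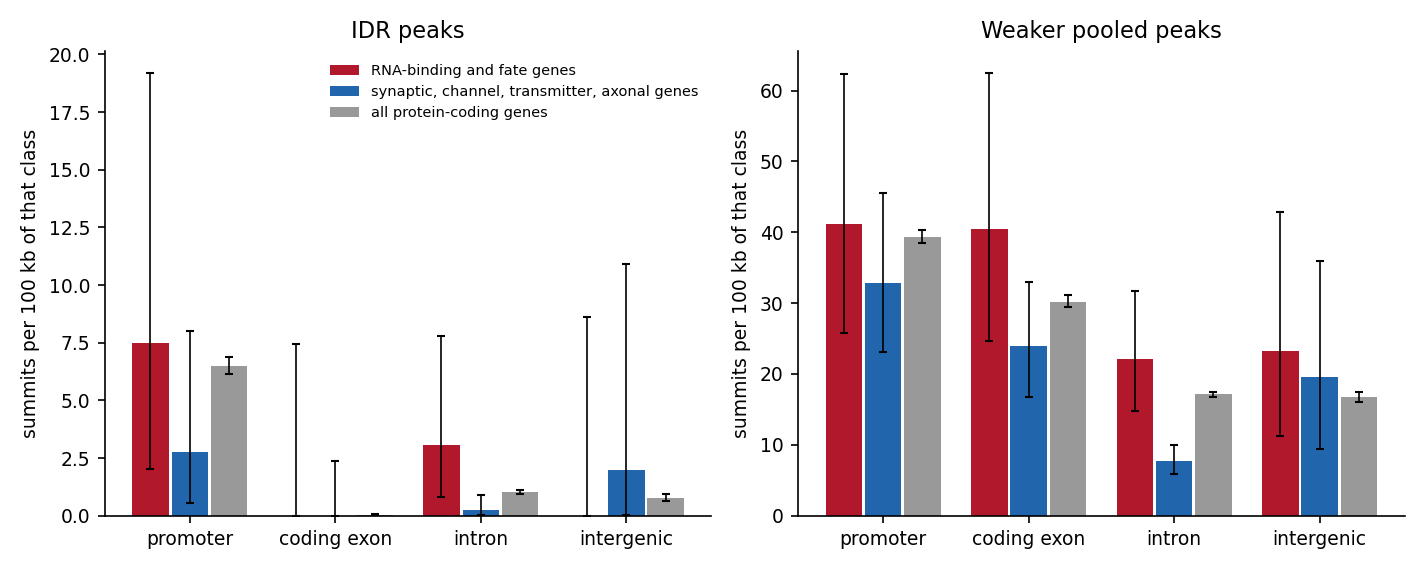
Summits per 100 kb of promoter, coding exon, intron and intergenic sequence, for IDR peaks (left) and weaker pooled peaks (right), with bars for the RNA-binding and fate genes (red), the other 22 genes (blue) and all protein-coding genes (grey) and exact Poisson 95% intervals. The red and blue intervals are apart for weaker peaks in introns, at 22.1 and 7.75, and overlap in the other classes of that panel.

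Of the 255 weaker peaks 58 lay within 500 bp of a start, 21 of them at a start of the listed gene and 37 at a start of another gene. Inside the genes there were 147, of which 89 were in introns, 32 in coding exons and 26 in other exons. The summits of weaker peaks at the 34 genes had a mean GC content of 48.5%, against 37.4% for the IDR peaks there. Over all protein-coding genes the values were 46.6% and 37.9%, so strong and weak peaks stood apart in base composition in both sets.

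The replicates held all 14 IDR peaks, and of all 1865 IDR peaks 1854 lay in replicate 1 and 1865 in replicate 3. This follows from how the IDR list was made. Weaker peaks are those outside that list, so a lower share in both replicates is built in. Both replicates had a peak at 89 of the 255 weaker peaks (34.9%, interval 29.1 to 41.1%), against 40% at all protein-coding genes. At the RNA-binding and fate genes this was 46.6% (35.9 to 57.5%), against 29.2% (22.4 to 36.7%) at the synaptic, channel, transmitter and axonal genes, with 23.9% at the channel genes. The intervals of the groups overlap slightly. Among the RNA-binding and fate genes 33 weaker peaks were in replicate 3 only and 13 in replicate 1 only, while among the other 22 genes 43 were in replicate 3 only and 67 in replicate 1 only. At all protein-coding genes 7318 were in replicate 3 only and 6188 in replicate 1 only, and at those of 40 kb or longer 1867 and 1895.

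Counting each replicate's own list, the RNA-binding and fate genes held 85 peaks in replicate 1 and 105 in replicate 3, a ratio of 0.81. The synaptic, channel, transmitter and axonal genes held 188 and 127, a ratio of 1.48, and all protein-coding genes 27165 and 28107, a ratio of 0.966. The 9 channel genes had 83 and 49 peaks. Single genes went further, with 11 and 1 at Snap25, 16 and 5 at slo, 18 and 6 at Sh and 17 and 5 at ChAT, while Shal had 3 and 10 and brat 15 and 24. Long genes as a whole leaned the same way as the channels, with a ratio of 1.12 over all genes of 40 kb or longer and 1.47 over the 13 listed ones. More peaks in replicate 1 than in replicate 3 were found at 18 of the 34 genes (fewer at 13, equal at 3), at 35.3% of all protein-coding genes and at 60.5% of those of 40 kb or longer. The peaks of replicate 1 at the 34 genes had a mean GC content of 48.1% and those of replicate 3 46.3%, against 47.1% and 44.2% at all protein-coding genes, and the part of base composition or depth in these ratios was not tested.

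**Figure D4:**
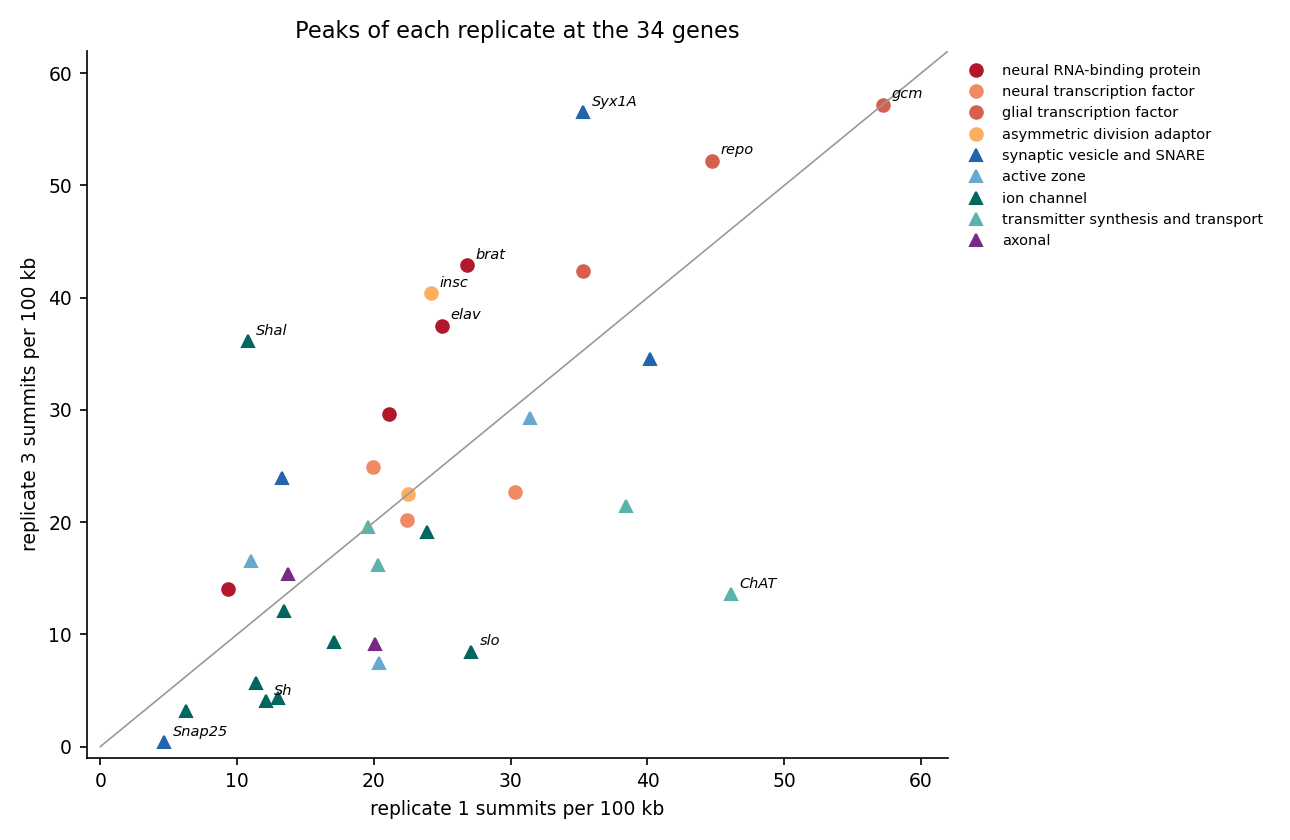
Summits per 100 kb of gene and flank in replicate 1 (horizontal) against replicate 3 (vertical) for the 34 genes, circles for RNA-binding and fate genes, triangles for the other 22, coloured by role, with a line where both are equal. slo, Sh, ChAT and Snap25 lie below the line, brat, elav, insc, Syx1A and Shal above it.

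For comparison, 110 further neural genes in 6 lists were counted the same way, and 33 (30%) had an IDR summit in the gene or within 5 kb. That is close to the 28.6% of all protein-coding genes, which are mostly shorter. By list this was 9 of 26 further fate and RNA-binding genes, 4 of 10 glial genes, 3 of 23 synaptic genes, 8 of 24 channel and receptor genes, 7 of 15 axon and cytoskeleton genes and 2 of 12 transmitter genes. The channel and receptor genes outside the 34 thus had IDR summits at 33.3%, against 0 of the 9 listed channels. An IDR summit within 1 kb of an own start was found at 13 of the 110 (11.8%). They included the fate and RNA-binding genes lola (signal 135), numb (82.6), msi (79.1) and fru (64.7), and the glial genes moody (221) and Nrg (69). Among synaptic genes they were Nrx-1 (139) and dlg1 (72.7), among channels NaCP60E (244, nearest to the start of RpL41) and Hk (69.7), among axon genes Ank2 (137) and sdk (128), and among transmitter genes Gs2 (180).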

How the data were processed

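ChIP-seq of emc-eGFP was measured in 2 samples of 1 group. The authors deposited narrowPeak lists, per the listing files: 1 relaxed list per replicate, a pooled one and an IDR-thresholded one. The authors' signal and −log10 q-value of each peak were used as deposited. Both replicates used the same control alignment, per the file headers of the listing files, and it was not analysed here. The sources used here do not name the aligner, the peak caller, their versions or the IDR cutoff. Lists on dm3 were not used. Each replicate list was ended by number, and 1 peak each of the pooled and replicate 1 lists lay off the 6 chromosomes. The labels call the replicates biological without describing separate collections, so their spread may be technical.

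Genes came from Ensembl release 115 (annotation 6.54) and sequence from RefSeq Release 6. Overlap meant at least 1 bp. Each summit got the first fitting class of 7: promoter, meaning a start of any protein-coding or non-coding gene within 500 bp; untranslated, coding or non-coding exon (with 5′ before coding and 3′ after it); intron; intergenic. Densities used the union of genes and 5 kb flanks with exact Poisson 95% intervals, and motifs and GC content used 201 bp around the summit. No test was made: with 1 group none over samples exists. The members and lists were chosen with earlier results of these data known. All 34 genes are given, those with an IDR summit with every such peak and the others by their strongest pooled peak. Further neural genes are named where an IDR summit lay within 1 kb of a start, at most 4 a list. 1 of their symbols was renamed. Counting, overlap and densities were tested on simulated data, and the assignment of classes was not. Alternatives were other windows, a stricter list, another overlap and leaving out a replicate. Tools were matplotlib 3.10.9, scipy 1.17.1, pandas 2.3.3 and numpy 2.4.6, in Python 3.11.15.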

Additional observations from a re-analysis of the deposited data

How the results depend on the processing

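The 8 genes with an IDR summit became 3 within the gene body or within 1 kb, 4 within 2 kb, 14 within 10 kb, 5 with the stronger 932 IDR peaks and 3 by nearest start. The 4 RNA-binding and fate genes became 2 with the stronger peaks and 2 by nearest start. The 4 other genes became 0 within the body, 0 within 1 kb, 1 within 2 kb, 9 within 10 kb and 1 by nearest start. The 14 IDR summits became 5, 6, 8 and 24 within the body, 1, 2 and 10 kb, and 6 with the stronger peaks. The 2 genes with one at a start became 1 within 500 bp and 6 within 5 kb. The promoter share moved by no more than its interval. Weaker peaks per 100 kb, 16 in all, became 11.6 in the body, 13 and 14 within 1 and 2 kb, 7.66 for the stronger ones and 18.5 without Snap25. The 25.4 of the RNA-binding and fate genes became 15 for the stronger ones and 23 without brat. Leaving out Snap25 or brat was chosen after seeing the data. The 13.4 of the others became 9.52 in the body, 11 within 1 kb, 5.68 for the stronger ones and 16.3 without Snap25. Requiring the peaks to overlap by 50% of the shorter put 26.7% of weaker peaks in both replicates. With 1 replicate left out, 8 to 9 genes had a peak in the other's top 1865 (7 of the 8 genes without replicate 1, all 8 without replicate 3; insc was lost and eag gained without replicate 1, and brp gained without replicate 3), and densities were 13.4 to 16.1 over all and 9.52 to 14.5 at the 22 genes. No paired analysis was possible because there was 1 group.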
